A study of Mus musculus with 1104 samples.

Results

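Cell division leaves a broad mark on the messenger RNA of a tissue, and 38 genes of that program were followed here through the first months of a high-fat diet in 13 mouse organs. They were taken by name from the 20646 genes of the count table, with earlier results of these data known. They fall into 5 roles. DNA replication has 11 genes (Mcm2 to Mcm7, Pcna, Rrm1, Rrm2, Tyms and Uhrf1). There are 9 cyclins, kinases and ubiquitin ligase parts (Ccna2, Ccnb1, Ccnb2, Cdk1, Aurka, Aurkb, Plk1, Cdc20 and Ube2c) and 9 genes of chromosomes, centromeres and the mitotic checkpoint (Mki67, Top2a, Birc5, Bub1, Bub1b, Cdca8, Cenpa, Cenpe and Cenpf). The rest are 7 genes of the spindle and of cytokinesis (Kif11, Kif20a, Kif23, Nusap1, Prc1, Tpx2 and Hmmr) and the transcription factors Foxm1 and E2f1.

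The mice were male, wild type and of the strain C57BL/6. All but those taken at 0 days received a diet with 60% of its energy as fat from 8 weeks of age until dissection. RNA of epididymal, inguinal and brown fat, liver, pancreas, small intestine, pituitary, hypothalamus, hippocampus, neocortex, olfactory bulb, gastrocnemius and soleus was sequenced after 1, 3 and 10 days, after 1 to 8, 10 and 12 weeks, and at 0 days, the onset of the diet. Epididymal fat was also taken at 16 and 20 weeks. Each of the 184 groups held 6 mice, which gave 1104 libraries. No group stayed on standard chow in the samples used, so the effects of diet, of age and of dissection day cannot be told apart, and the labels do not say whether organs came from the same animals.

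Cells that commit to division first load the Mcm2-7 helicase onto DNA and turn on the enzymes of DNA synthesis, a step driven by E2F transcription factors. Later, in G2 phase and mitosis, Foxm1 and related factors turn on the cyclin B and Cdk1 kinase, the chromosome passengers, the checkpoint and the spindle motors. Some of these proteins, among them cyclin B, are then destroyed as the cell divides. Most cells of adult fat, liver, muscle and brain rest outside the cycle, while the crypts of the small intestine divide throughout life.

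The timing of these genes is written partly in their promoters, and 5 promoters are shown as examples of the elements searched for. The cell cycle genes homology region (CHR, TTTGAA) and the CCAAT box are known from promoters of G2 and mitosis genes, and the E2F element (searched as TTTNGCGC) from those of S phase genes. Each stretch runs 5′ to 3′ on the gene's strand from 250 bases before to 50 bases after the RefSeq start in GRCm38, and capitals mark matches to any of these 3 motifs on either strand (TTCAAA and ATTGG are the CHR and the CCAAT box read from the other strand).
Ccnb2, chr9:70421505-70421804 (minus strand): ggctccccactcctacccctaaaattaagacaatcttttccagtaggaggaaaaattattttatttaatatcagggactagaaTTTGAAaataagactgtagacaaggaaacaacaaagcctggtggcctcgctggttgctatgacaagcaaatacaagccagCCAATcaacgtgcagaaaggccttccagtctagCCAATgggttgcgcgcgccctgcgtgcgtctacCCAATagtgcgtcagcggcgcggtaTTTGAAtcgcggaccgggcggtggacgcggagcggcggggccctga
Cdc20, chr4:118437294-118437593 (minus strand): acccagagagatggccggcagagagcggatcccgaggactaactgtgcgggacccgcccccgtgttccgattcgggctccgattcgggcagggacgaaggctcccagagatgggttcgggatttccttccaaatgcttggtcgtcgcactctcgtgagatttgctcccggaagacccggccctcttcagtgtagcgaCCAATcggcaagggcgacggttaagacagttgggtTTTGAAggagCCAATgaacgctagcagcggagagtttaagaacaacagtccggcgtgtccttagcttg
Cdk1, chr10:69352863-69353162 (minus strand): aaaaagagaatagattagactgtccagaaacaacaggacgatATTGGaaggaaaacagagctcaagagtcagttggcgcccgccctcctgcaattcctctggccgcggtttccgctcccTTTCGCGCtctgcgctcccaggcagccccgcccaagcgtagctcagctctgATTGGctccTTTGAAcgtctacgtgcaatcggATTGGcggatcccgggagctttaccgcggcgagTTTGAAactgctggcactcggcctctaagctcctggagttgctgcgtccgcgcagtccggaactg
Mcm5, chr8:75109259-75109558 (plus strand): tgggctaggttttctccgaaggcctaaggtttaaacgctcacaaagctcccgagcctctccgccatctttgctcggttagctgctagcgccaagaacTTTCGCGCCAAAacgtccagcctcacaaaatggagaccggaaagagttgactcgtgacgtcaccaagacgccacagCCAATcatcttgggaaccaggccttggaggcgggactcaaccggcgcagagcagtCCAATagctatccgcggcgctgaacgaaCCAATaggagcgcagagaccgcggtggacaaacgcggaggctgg
Mcm6, chr1:128359656-128359955 (minus strand): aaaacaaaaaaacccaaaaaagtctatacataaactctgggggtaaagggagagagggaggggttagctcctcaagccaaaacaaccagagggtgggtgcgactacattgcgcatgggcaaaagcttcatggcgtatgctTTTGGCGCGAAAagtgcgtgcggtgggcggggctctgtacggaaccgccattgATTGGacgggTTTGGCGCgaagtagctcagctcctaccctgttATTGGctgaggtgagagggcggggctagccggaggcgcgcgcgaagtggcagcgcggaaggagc
Ccnb2, a B-type cyclin, and Cdc20, the activator of the ubiquitin ligase that ends mitosis, held CHR and CCAAT matches and no E2F match, whereas Mcm5 and Mcm6, subunits of the replicative helicase, held E2F and CCAAT matches and no CHR. Cdk1, the kinase partner of the B cyclins, held all 3 kinds.

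RefSeq's table listed a promoter for 32 of the 38 genes; Ccna2, Aurkb, Kif20a, Mcm4, Tpx2 and Foxm1 had no entry. A CHR stood in 17 of the 32 (53.1%), against 5464 of 27018 genes (20.2%), a CCAAT box in 28 (87.5%), against 41.1% of genes, and the E2F letters in 6 (18.8%), against 1.57%. The CHR and E2F matches followed the roles. A CHR was found in 6 of 7 promoters of cyclins, kinases and ligase parts, 6 of 9 of chromosome genes and 4 of 5 of spindle genes. It was found in 1 of 10 replication promoters, while the E2F letters were found in 5 of 10 replication promoters and in Cdk1. The CCAAT box did not separate the roles. It stood in 9 of 10 replication promoters, 7 of 7 of cyclins, kinases and ligase parts, 8 of 9 of chromosome genes and 4 of 5 of spindle genes. These are counts of letters in a window; binding was not measured.

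Library totals ran between 7670532 and 27036098 counted reads with a median of 13464321, so that 1 CPM (the unit of level used here, a gene's count scaled to the size of its library) stood for 13.46 reads in a median library. The pancreas was shallowest, with a median of 9331883.5. At 0 days the members with a median of at least 1 CPM numbered 18 in soleus, 20 in gastrocnemius, 24 in liver, olfactory bulb and hypothalamus and more elsewhere, and those near or under 1 CPM rest on few reads. The organs carried their defining markers in every group: summed over 10 genes, hepatocyte markers lay between 92000 and 130000 CPM in liver, acinar markers at or above 289000 CPM in pancreas, and adipocyte markers at or above 12600, 10700 and 12300 CPM in epididymal, inguinal and brown fat. Some libraries carried RNA of neighbouring tissue (skeletal muscle, pancreas, epididymis or lymph node), which is given beside the results it touches. Unless another test is named, an adjusted p is from edgeR's quasi-likelihood test fitted per organ, adjusted by Benjamini-Hochberg over all genes of that organ that passed a filter on low counts. Changes are log2 fold changes of CPM ± standard error, and a gene is called higher or lower at an adjusted p below 0.05.

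Before the diet the small intestine stood apart. Mki67, the Ki-67 antigen that coats chromosomes of cycling cells, had a lowest, median and highest value over 6 mice of 117, 138 and 156 CPM in small intestine, on a scaling common to all organs. Inguinal fat followed with 10.6, 17.2 and 28.5 CPM, pancreas with 3.77, 8.26 and 11.1, pituitary with 5.22, 6.64 and 11.6, and epididymal fat with 4.69, 6.52 and 8.65. Neocortex (2.25, 2.95 and 3.23), hippocampus (2.18, 2.77 and 3.38), liver (1.25, 2.16 and 3.47) and brown fat (0.486, 1.62 and 3.68) lay lower. The order ended with olfactory bulb (0.465, 1.33 and 2.2), hypothalamus (0.541, 0.959 and 1.85), gastrocnemius (0.0993, 0.368 and 3.97) and soleus (0, 0.256 and 0.877). Only 2 neighbours in this order did not overlap, small intestine against inguinal fat and epididymal fat against neocortex. The inguinal values come from libraries rich in B and T cell transcripts. The place of the pancreas depends on the scaling: the same libraries had lower values on the pancreas's own scaling, used below.

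In one fit of the 78 libraries at 0 days, 37 of 38 genes were higher in small intestine than in the mean of the other 12 organs and none was lower, against 38.3% higher and 36.5% lower of 16740 genes. Their median difference was 3.06 on the log2 scale and that of all genes was -0.14. Ccnb1, the B-type cyclin that triggers mitosis, differed by 5.74 ± 0.19, Top2a, the topoisomerase that untangles sister chromosomes, by 5.66 ± 0.15, and Mki67 by 5.64 ± 0.15 (adjusted p = 2.55e-46). The 11 replication genes had a median difference of 1.95, from 0.73 to 3.19, beside 4.3 for cyclins and kinases, 4.78 for chromosome genes and 3.72 for spindle genes, with no test between the roles. It was 1.55 ± 0.10 for the helicase subunit Mcm2, 1.55 ± 0.06 for Pcna, the sliding clamp of DNA polymerases, 1.22 ± 0.08 for Rrm1, the large subunit of ribonucleotide reductase, 1.06 ± 0.10 for Mcm4 and 0.73 ± 0.06 for Mcm7. Cdk1 differed by 4.67 ± 0.16 and Foxm1 by 2.84 ± 0.16, and E2f1 was the exception at -0.26 ± 0.18 (adjusted p = 0.201). The 17 genes with a CHR had a median difference of 4.23 and the 15 with a promoter but no CHR one of 2.50, given without a test.

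Epididymal fat had the most genes called of the 13 organs at 12 weeks. Its genes rose in 2 waves, with the mitotic genes ahead in the first. One came at 3 days, and the later one was large by 8 weeks and is followed here at 12 weeks. At 3 days 34 of 38 genes were higher than at 0 days and none was lower, against 21.3% higher and 16.7% lower of all 15225 genes tested. The median change was 2.02, against 0.04 over all genes, and in 30 genes all 6 mice lay above all 6 at 0 days. The share of all genes without overlap is not given here or below, so such counts have no background beside them. At 12 weeks 37 were higher and none lower, against 31.0% and 29.3% of all genes, with a median of 2.08 and 37 genes without overlap. In whole tissue, a change in the number of dividing cells and a change in RNA per cell cannot be told apart.

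Mki67 in epididymal fat had 5.96, 8.17 and 10.8 CPM at 0 days as lowest, median and highest of 6 mice, 9.07, 16.1 and 24.3 at 1 day, 33.9, 64.4 and 118 at 3 days, 17.3, 31.2 and 54.1 at 1 week and 5.96, 14 and 17.1 at 2 weeks. It then had 8.77, 22.0 and 31.6 CPM at 4 weeks, 78.2, 93.0 and 97.1 at 12 weeks and 65.9, 82.0 and 96.2 at 20 weeks. The mice at 3 days and those at 12 and 20 weeks lay above every mouse at 0 days, and the mice at 2 weeks overlapped with them. Its change was 3.06 ± 0.32 at 3 days (adjusted p = 1.61e-12), 2.09 ± 0.31 at 1 week, 0.71 ± 0.31 at 2 weeks (adjusted p = 0.0586) and 3.46 ± 0.32 at 12 weeks.

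**Figure D1:**
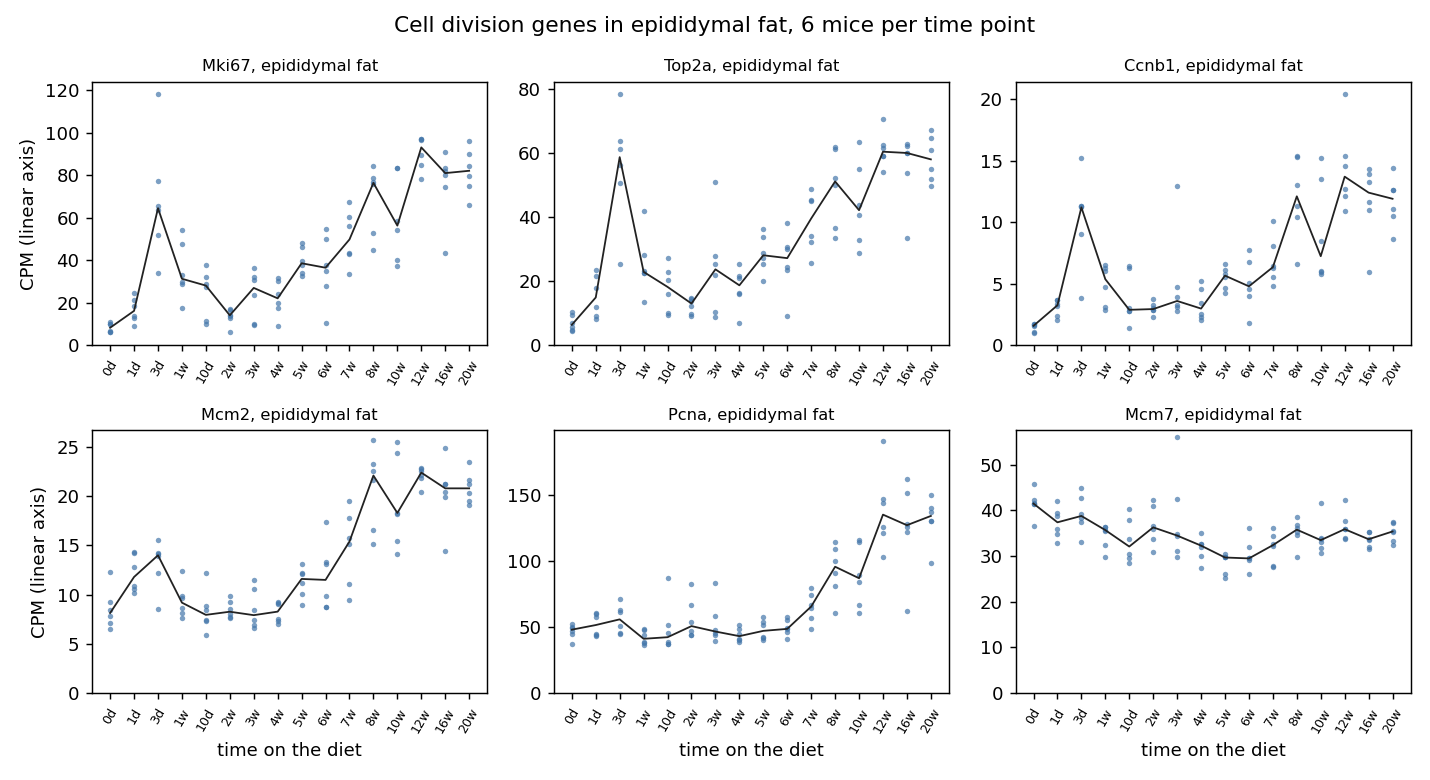
CPM (linear axis) of Mki67, Top2a, Ccnb1, Mcm2, Pcna and Mcm7 in epididymal fat at each time on the diet; points are mice (6 per time) and the line joins medians. Mki67, Top2a and Ccnb1 have an early peak at 3 days, where Mki67 reached 118, and a late plateau, while Pcna stayed between 44.8 and 71.5 at 3 days and lay between 103 and 191 at 12 weeks.

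In the early wave the cyclin, chromosome and spindle genes had larger changes than the replication genes, with no test between the roles. All 9 cyclins, kinases and ligase parts were higher at 3 days with a median of 2.28, as were all 9 chromosome genes (3.00) and all 7 spindle genes (2.50), whereas 7 of 11 replication genes were higher with a median of 0.60. Top2a had 25.5, 58.8 and 78.5 CPM at 3 days, against 4.54, 6.35 and 10.5 at 0 days, a change of 3.00 ± 0.31 (adjusted p = 7.32e-13). Ccnb1 had 3.85, 11.2 and 15.2 CPM at 3 days, against 0.997, 1.57 and 1.74 at 0 days (2.84 ± 0.32, adjusted p = 2.16e-11). Cdk1 had 7.12, 17.4 and 22.1 CPM, against 1.84, 3.18 and 4.46 at 0 days (2.44 ± 0.28, adjusted p = 4.52e-11). None of these groups overlapped. Hmmr, a spindle protein that also binds hyaluronan, rose by 3.34 ± 0.32 and Cenpf, a kinetochore protein, by 3.21 ± 0.39.

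On the replication side the steps were small at 3 days. Mcm2 had 8.5, 14 and 15.6 CPM at 3 days, against 6.5, 8.14 and 12.3 at 0 days (0.61 ± 0.16, adjusted p = 0.00152), and the groups overlapped. Pcna had 44.8, 55.8 and 71.5 CPM, against 37.1, 48.0 and 52.5 at 0 days (0.26 ± 0.18, adjusted p = 0.25). The lowest called changes were those of Mcm3 (0.42 ± 0.17, adjusted p = 0.0386), of Tyms, which makes thymidylate (0.60 ± 0.21), and of Mcm2. E2f1 rose by 0.73 ± 0.15 with 12.9, 15.5 and 17 CPM at 3 days, against 7.09, 8.96 and 10.4 at 0 days, and Foxm1 by 2.18 ± 0.32 with 5.6, 16 and 17.9 CPM, against 2.59, 2.92 and 4.13.

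Ube2c, the ubiquitin-conjugating enzyme that works with Cdc20, had the highest fitted change at 3 days, 5.88 ± 0.75, and this value rests on 1 library. It had 11.1, 21.9 and 1270 CPM at 3 days, against 3.39, 3.67 and 5.1 at 0 days, and the second highest mouse at 3 days had 25.8. The library with 1270 CPM held 30000 CPM of skeletal muscle transcripts, among them 1230 CPM of Tnnc2, the troponin C of fast muscle, whose exons overlap 592 exon bases (22.8%) of Ube2c on the opposite strand. In gastrocnemius at 0 days Ube2c was counted at 6060, 6560 and 6860 CPM and Tnnc2 at 5900, 6410 and 6670. Without the libraries that carried muscle, acinar or epididymis markers, the change of Ube2c at 3 days was 2.45. The kit marks strand, but whether the counting used strand is not given in the sources used here. Reads of the 2 genes therefore cannot be told apart. No level or change of Ube2c in muscle is given below, though it stays in the counts of genes called there.

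Exon overlaps with another gene of the table were found for 9 of the 38 genes, 8 of them with a gene on the opposite strand. The share of exon bases was 29.3% for Kif20a (with Cdc23), 12.5% for Ccna2 (Exosc9), 11.1% for Prc1 (Rccd1), 7.25% for Mcm7 (Ap4m1) and under 5% for Cdc20, Cdca8, Nusap1 and, on the same strand, Foxm1. In epididymal fat the neighbours Cdc23, Exosc9, Rccd1 and Ap4m1 changed by 0.14, 0.75, 0.68 and -0.46 at 12 weeks.

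After 3 days the genes came down, though not steadily. At 1 week 27 were higher than at 0 days and 1 lower, against 20.1% and 16.3% of all genes, with a median of 1.02 and 13 genes without overlap. The largest changes were those of Cenpf (2.16), Hmmr (2.12), Mki67 and Cenpe (2.09 each). Top2a rose by 1.85, Ccnb1 by 1.77, Foxm1 by 1.29, Cdk1 by 1.17 and E2f1 by 0.69. The lowest calls were Rrm1 (0.34) and Kif20a, a motor of cytokinesis (0.45), and Mcm7 was lower by -0.27 ± 0.09 (adjusted p = 0.0156). Mcm2 (0.13) and Pcna (-0.15) were not called. Set directly against 3 days, 28 genes were lower at 1 week and none was higher, against 4.97% lower and 2.40% higher of all genes, with a median of -0.98. They were 9 of 9 cyclins and kinases, 7 of 9 chromosome genes, 7 of 7 spindle genes and 5 of 11 replication genes.

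In that step Mki67 fell by 0.96 ± 0.29 (adjusted p = 0.0271), Cdk1 by 1.27 ± 0.27, Top2a by 1.15, Ccnb1 by 1.07, and Birc5, the survivin subunit of the chromosome passenger complex, and Cdc20 by 1.30 each. The smallest called steps were those of Rrm1 (-0.48), Mcm5 (-0.63) and Tyms (-0.69). Ube2c stepped by -4.66, or by -1.49 without the libraries with other tissue. Foxm1 (-0.89, adjusted p = 0.0594), Mcm2 (-0.48, adjusted p = 0.0514), Pcna (-0.41) and E2f1 (-0.05) were not called.

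At 2 weeks 11 genes were called higher and none lower, against 22.2% and 17.1% of all genes, with a median of 0.46 beside 0.08 over all genes. In 3 genes the mice did not overlap with those at 0 days. Bub1, a checkpoint kinase, changed by 1.16 and Ccnb1 by 1.06 ± 0.32, with 2.28, 2.93 and 3.78 CPM at 2 weeks, against 0.997, 1.57 and 1.74 at 0 days. Hmmr (0.91), Top2a (0.82), E2f1 (0.74) and Cdk1 (0.67, adjusted p = 0.0484) were also called, down to Nusap1 (0.60), Cdca8 (0.55) and Cenpa, the centromeric histone (0.48), while Pcna (0.28), Foxm1 (0.15) and Mcm2 (-0.01) were not. At 2 weeks 7 were called after leaving out each group's least correlated library. The 2-week group had the lowest median of the groups between the waves, beside 0.82 at 10 days. At 3 weeks 28 genes were higher and none lower, against 24.8% and 14.6% of all genes, with a median of 1.20 and 11 genes without overlap. At that time Mki67 changed by 1.52 ± 0.31 and Foxm1 by 1.88 ± 0.32, and Mcm2 (0.00) and Pcna (0.18) were not called. Between 1 and 4 weeks edgeR called no gene in either direction, with 10 at an unadjusted p below 0.05 and none by DESeq2. Of all genes 0.499% were higher and 0.361% lower. The 8 genes followed throughout (Mki67, Top2a, Ccnb1, Cdk1, Mcm2, Pcna, Foxm1 and E2f1) lay between -0.67 for Mki67 and 0.22 for E2f1.

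In the late wave the median change of the replication genes was larger than at 3 days, with no test between the times. Against 0 days the median change was 1.16 at 5 weeks, 1.04 at 6, 1.53 at 7, 1.95 at 8 and 1.81 at 10 weeks. The median over all genes lay between -0.01 and 0.01 at these times. Against 4 weeks, 36 genes were higher at 12 weeks and none lower, against 22.0% and 21.3% of all genes, with a median of 1.44 and 36 genes without overlap. The changes ran from Bub1 by 2.31, Birc5 by 2.21, Hmmr by 2.19, Ccnb1 by 2.1, Cdk1 by 2.08, Mki67 by 2.04 ± 0.30, Top2a by 1.78, Pcna by 1.65, Mcm2 by 1.43 and Foxm1 by 1.40 down to Tyms (0.82), Mcm4 (0.71) and E2f1 (0.58). Against 0 days, 10 of 11 replication genes were higher at 12 weeks with a median of 1.37, beside 9 of 9 cyclins and kinases (2.2), 9 of 9 chromosome genes (3.13), 7 of 7 spindle genes (2.52) and both factors (1.82). Pcna now had 103, 135 and 191 CPM at 12 weeks, against 37.1, 48.0 and 52.5 at 0 days (1.57 ± 0.18, adjusted p = 2.77e-12). Mcm2 had 20.4, 22.4 and 22.9 CPM, against 6.5, 8.14 and 12.3 (1.37 ± 0.16, adjusted p = 1.01e-11). Neither pair of groups overlapped.

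Bub1 had the highest change at 12 weeks, with 6.5, 8.01 and 13.5 CPM, against 0.446, 0.561 and 0.994 at 0 days (3.69 ± 0.44, adjusted p = 1.51e-11). Hmmr followed with 9, 12 and 15 CPM, against 0.575, 0.916 and 1.52 (3.62 ± 0.33, adjusted p = 2.04e-16), and then Cenpe, a kinetochore motor, with 13.9, 14.6 and 16.5 CPM, against 0.862, 1.24 and 1.88 (3.52 ± 0.38). Ccnb1 rose by 3.32 ± 0.33, Top2a by 3.13 ± 0.31, Cdk1 by 2.74, Foxm1 by 2.15 and E2f1 by 1.49 ± 0.15. The smallest called changes were those of Kif20a (1.14 ± 0.16), Tyms (0.76 ± 0.21) and Mcm4 (0.66 ± 0.11). Mcm7 was the 1 gene not called: it had 33.8, 35.9 and 42.3 CPM at 12 weeks, against 36.6, 41.5 and 45.8 at 0 days.

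The plateau held to 20 weeks, where 37 genes were higher than at 0 days and 1 lower, against 31.0% and 29.8% of all genes, with a median of 1.80. Hmmr (3.46), Cenpe (3.40), Bub1 (3.37) and Mki67 (3.31) changed most, Pcna by 1.49, Mcm2 by 1.28, Tyms by 0.64 and Mcm4 by 0.61, and Mcm7 was the gene called lower (-0.24 ± 0.09, adjusted p = 0.0213). Between 12 and 20 weeks edgeR called no gene, with 1 at an unadjusted p below 0.05 and none by DESeq2, beside 1.40% of all genes higher and 0.512% lower. The 8 genes lay between -0.41 for Foxm1 and -0.07 for Top2a.

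Other genes of the cycle moved with them in epididymal fat. Of 66 further cell cycle genes, 49 were higher and none lower at 3 days with a median of 1.46, among them Racgap1 of the cytokinetic centralspindlin complex (2.03 ± 0.22) and the condensin subunit Smc2 (1.70 ± 0.19). At 12 weeks 60 were higher and 1 lower with a median of 1.83. Tk1, thymidine kinase, rose by 2.56 ± 0.22 and Smc2 by 2.2 ± 0.19, and Pttg1, securin, fell by 0.89 ± 0.21. Of 11 cyclins and kinases of G1, 3 were higher and 3 lower at 3 days (Ccne1 by 1.41 and Ccne2 by 0.73, against Ccnd1 by -1.03 and Myc, a growth factor-induced regulator kept in this list, by -0.97), and 4 higher and 3 lower at 12 weeks. Of 12 inhibitors of the cycle, 7 were higher at 3 days, among them Cdkn2d (0.78) and Rb1 (0.65), and 5 higher and 3 lower at 12 weeks, with Cdkn2a at 2.55 ± 0.43 and Cdkn2c at -1.06.

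The cell type markers of the fat moved differently in the 2 waves. At 3 days 2 of 13 macrophage markers were higher and their summed level was 1460, 1690 and 2340 CPM, against 1410, 1620 and 2010 at 0 days. At 12 weeks 12 of 13 were higher with a median of 1.9 and a sum of 4850, 6500 and 9860 CPM. B cell markers (10 genes) summed to 55, 96.7 and 219 CPM at 20 weeks, when all 10 were higher than at 0 days, and 9 T cell markers were higher at that time too. These lymphocyte values are from 20 weeks and do not give the level at 12 weeks. Adipocyte markers summed to 12600, 16700 and 20500 CPM at 12 weeks, against 20500, 24100 and 29000 at 0 days, with 8 of 10 lower. Skeletal muscle markers were higher in 9 of 9 at 3 days, and 1 other library at 3 days held 15300 CPM of acinar markers. Without the libraries that carried other tissue 35 genes were higher at 3 days and 37 at 12 weeks. Within time points, Mki67 and the mean of the macrophage markers were related with r = 0.22 (Pearson) and rho = 0.23 (Spearman) over 96 libraries (permutation test within time points, adjusted p = 0.053 and 0.0752 over the 10 such relations computed). The part of any of these cells in the gene changes was not tested.

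The median changes of genes with and without a CHR in the promoter lay further apart at 3 days than at 12 weeks. At 3 days the 17 with a CHR had a median of 2.44, with 17 higher, and the 15 without one of 0.89, with 12 higher. At 12 weeks the medians were 2.2 and 1.86. The 6 genes with the E2F letters had medians of 0.66 at 3 days and 1.64 at 12 weeks, those without 2.36 and 2.15. Promoter letters and role go together in these genes, and no test was made.

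**Figure D2:**
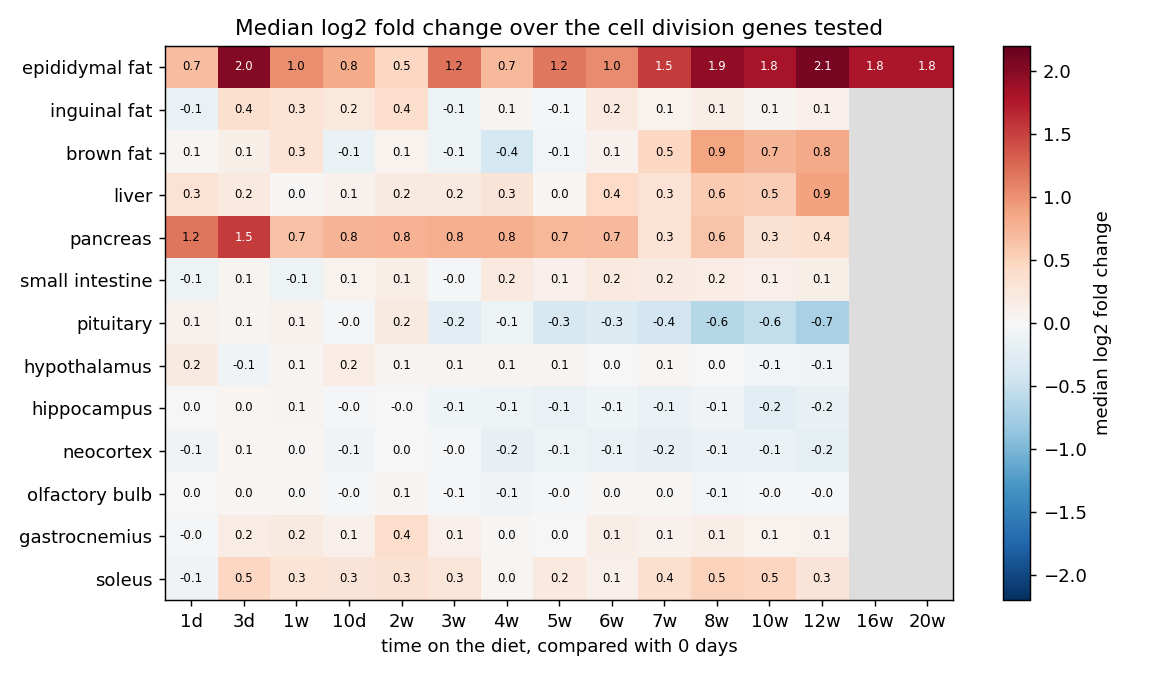
Median log2 fold change against 0 days over the members tested, for each of 13 organs (rows) and each time on the diet (columns), with the value printed in each cell. Epididymal fat reached 2.02 at 3 days and 2.08 at 12 weeks, the pancreas 1.54 at 3 days, and the pituitary stood at -0.71 at 12 weeks.

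In inguinal fat calls at 12 weeks went both ways and were no more frequent than among all genes. The libraries at that time were also poor in lymphocyte transcripts. At 12 weeks 6 of 38 genes were higher and 6 lower than at 0 days, against 21.5% higher and 23.1% lower of 14704 genes, with a median of 0.12. All 6 Mcm helicase subunits were the ones that fell: Mcm2 by 1.13 ± 0.33 (adjusted p = 0.00366), Mcm3 by 1.04, Mcm5 by 0.95, Mcm4 by 0.86, Mcm6 by 0.82 and Mcm7 by 0.82 ± 0.14 (adjusted p = 4.02e-06). Mcm7 had 21.1, 25.2 and 26.5 CPM at 12 weeks, against 35.2, 44.8 and 47.9 at 0 days, without overlap, and Mcm2 had 9.16, 10.1 and 12.6 CPM, against 12.2, 23.4 and 32.4.

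Cenpe (1.17 ± 0.39), Cdk1 (1.13 ± 0.31) and E2f1 (0.99 ± 0.17) were higher in inguinal fat at 12 weeks, with Cenpf, Prc1 and Tpx2. Cdk1 had 9.3, 11.7 and 13.8 CPM at 12 weeks, against 2.93, 5.05 and 8.89 at 0 days, and E2f1 12.9, 14.3 and 16 CPM, against 4.56, 7.38 and 9.14, both without overlap. Mki67 had 35, 37.3 and 46.3 CPM, against 14.1, 23 and 37.8 (0.69, adjusted p = 0.133), and Top2a (0.26) and Pcna (-0.10) were not called. Earlier, 8 genes were higher and none lower at 3 days, against 9.88% and 6.13% of all genes. There were 6 higher and none lower at 1 week, against 8.25% and 3.77%. A fit of 3 and 0 days alone called 1 gene, and one of 1 week and 0 days none. At 3 days the calls included Cenpf (1.13), Ccnb2 (1.06), Cdk1 (1.02 ± 0.31), Bub1 (0.80), Ccna2, cyclin A (0.70), and E2f1 (0.54). At 1 week they were Birc5 (1.52 ± 0.44, but -0.10 after leaving out each group's least correlated library), Tyms (0.98), Cdk1 (0.91), Prc1, which bundles midzone microtubules (0.77), Ccna2 (0.75) and E2f1 (0.52).

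These inguinal values moved with lymphocyte transcripts. The summed B cell markers split the 84 libraries into 54 between 200 and 2350 CPM and 30 between 3.25 and 29.4 CPM. All 6 libraries at 0 days lay in the upper cluster (575, 1220 and 1770 CPM) and all 6 at 12 weeks in the lower one (6.91, 9.08 and 29.4), with 2 in the lower at 3 days and 1 at 1 week. T cell markers went the same way, with 10, 14 and 19.5 CPM at 12 weeks, against 265, 491 and 763 at 0 days, and skeletal muscle markers the other way, with 6950, 11500 and 31200 CPM, against 57.1, 182 and 33400. Between 12 weeks and 0 days the time on diet and the lymphocyte content cannot be told apart. Within the upper cluster 4 genes were higher at 3 days (Bub1, Cenpf, Nusap1 and Prc1) and 10 at 1 week, of 38, and none was lower. Of all genes 0.796% were higher and 0.979% lower in that fit at 3 days, and 6.98% and 3.72% at 1 week. Over the 54 libraries of that cluster Mki67 followed the B cell markers within time points with r = 0.58 and rho = 0.58 (permutation test, adjusted p = 0.001 and 0.0025). With the 2 most distant libraries dropped r was again 0.58. Over 26 libraries of the lower cluster r was -0.16 (permutation test, adjusted p = 0.741).

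The 12-week change was larger in epididymal than in inguinal fat for 35 of 38 genes and smaller for none, against 21.4% and 18.9% of 15667 genes, by a test of the difference itself. The median difference was 2.25. It was 3.24 for Bub1, 3.03 for Ccnb1, 3.02 for Birc5, 2.87 for Top2a, 2.77 ± 0.49 for Mki67 (adjusted p = 1.29e-06), 2.50 ± 0.36 for Mcm2 and 1.66 for Pcna, and the smallest called differences were 1.33 for Rrm1, 0.97 for Kif20a and 0.63 for Mcm7. E2f1 (0.50, adjusted p = 0.0555), Tyms (0.44) and Ube2c (1.16) were not called. In inguinal libraries that carried muscle, reads of Ube2c cannot be told apart from those of Tnnc2. Since the inguinal change holds the loss of lymphocyte markers, that loss and a depot difference cannot be told apart here.

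In brown fat the rise was late and partial. At 12 weeks 19 of 37 genes tested were higher and 1 lower than at 0 days, against 14.4% and 13.2% of 13196 genes, with a median of 0.83, and 8 had no overlap. At 1 week 1 was higher (Rrm1, 0.56 ± 0.13) and 2 lower (Uhrf1, -1.83 ± 0.27, and Pcna, -0.36 ± 0.09), against 8.46% and 7.27%. From 4 to 12 weeks 23 were higher and none lower, against 9.29% and 8.35%, with a median of 1.21 and 16 genes without overlap. The 12-week calls against 0 days spanned 3 of 11 replication genes, 6 of 9 cyclins and kinases, 5 of 8 chromosome genes, 3 of 7 spindle genes and both factors.

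Mki67 in brown fat had 0.419, 1.4 and 3.25 CPM at 0 days, 0, 0.907 and 1.5 at 4 weeks and 2.96, 7.19 and 9.62 at 12 weeks. The 12-week mice lay above all at 4 weeks and overlapped with those at 0 days. Its change was 2.05 ± 0.42 against 0 days and 2.86 ± 0.45 against 4 weeks. Against 0 days Top2a rose by 1.77 ± 0.45, Cdk1 by 1.56, Tpx2, which builds the spindle, by 1.48, Foxm1 by 1.20, E2f1 by 1.10 and Mcm2 by 0.80, down to Ccna2 (0.62) and Rrm1 (0.55). Ccnb1 (0.76) and Pcna (-0.02) were not called. Against 4 weeks Cdk1 rose by 2.96 ± 0.58, Top2a by 2.49, Ccnb1 by 2.1, Tpx2 by 1.87, Foxm1 by 1.58, E2f1 by 1.54, Bub1b, a checkpoint kinase, by 0.90, Mcm2 by 0.75 and Ccna2 by 0.68. Pcna was again not called (-0.02).

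Uhrf1, which carries DNA methylation through replication, ran the other way in brown fat. It had 4.99, 9.05 and 11.6 CPM at 0 days, 1.14, 1.93 and 2.74 at 1 day, 1.35, 2.29 and 3.82 at 1 week, 2.56, 3.29 and 3.71 at 4 weeks and 2.14, 3.23 and 4.43 at 12 weeks. Every later mouse of these groups lay below every mouse at 0 days, and the change at 12 weeks was -1.36 ± 0.27 (adjusted p = 3.7e-05). In epididymal fat the same gene was among those that rose, and the 12-week change of Uhrf1 was 3.25 ± 0.38 larger there than in brown fat.

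Brown fat libraries differed in the muscle they carried: muscle markers summed to 353, 662 and 2330 CPM at 12 weeks, against 90, 271 and 3080 at 0 days, and none of 10 was called. Without the libraries above 1000 CPM, 9 genes were higher at 12 weeks against 0 days and 17 against 4 weeks, and 12 against 0 days after leaving out each group's least correlated library. Macrophage markers were higher in 8 of 13 and lower in 1 at 12 weeks, with a sum of 331, 400 and 583 CPM, against 244, 420 and 542 at 0 days. Mki67 followed the macrophage mean within time points over 84 libraries with r = 0.47 and rho = 0.55 (permutation test, adjusted p = 0.001 for both). Before adjustment p was 0.0001, the smallest that 10000 permutations can give, and r was 0.45 without the 2 farthest libraries. Of 66 further cell cycle genes, 56 were tested and 16 higher at 12 weeks, led by Nek2, a centrosome kinase (2.37), and Ckap2l (2.03), and 1 was lower, Slbp (-0.22).

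The 12-week change in epididymal fat exceeded that in brown fat for 26 of 38 genes and was smaller for none, against 19.9% and 20.5% of 15435 genes, with a median difference of 1.15. Uhrf1 led, followed by Ccnb1 (2.52), Hmmr (2.35), Bub1 (2.14), Cenpe (2.08) and Cenpa (1.84), with Pcna at 1.56 ± 0.20, Mki67 at 1.35 ± 0.50 (adjusted p = 0.0233) and Top2a at 1.32, down to Kif20a (0.90), Rrm1 (0.75) and Tyms (0.67). Cdk1 (1.14, adjusted p = 0.0814), Foxm1 (0.91), Mcm2 (0.54) and E2f1 (0.34) were not called.

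In liver most calls came at 12 weeks, and neither Pcna nor Cdk1 was among them. At 12 weeks 22 of 36 genes tested were higher than at 0 days and none was lower, against 20.6% and 21.4% of 12592 genes, with a median of 0.88 and 9 genes without overlap. At 1 week 1 was lower, Pcna by -0.23 ± 0.08 (adjusted p = 0.049), and none higher, against 5.55% and 5.19%. That call was lost under RLE size factors, with no filter, in the fit of 1 week and 0 days alone and without each group's least correlated library. At 4 weeks 8 were higher and none lower, against 7.02% and 7.53%, with a median of 0.28, among them Mki67 (1.59 ± 0.30) and Top2a (1.75 ± 0.42), and 4 in the fit of 4 weeks and 0 days alone. Mki67 had 3.47, 5.42 and 7.1 CPM at 12 weeks, against 0.859, 1.48 and 2.41 at 0 days (1.77 ± 0.29). Top2a had 1.93, 4 and 5.76 CPM, against 0.0781, 0.733 and 2.31 (1.99 ± 0.41). Mki67 had no overlap, and Top2a overlapped.

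Cdk1 in liver had 0.463, 1.61 and 2.53 CPM at 12 weeks, against 1.05, 1.48 and 2.11 at 0 days (0.00 ± 0.31, adjusted p = 0.993). Pcna had 21.9, 25.3 and 28.7 CPM, against 21.6, 24.4 and 27.8 (0.03 ± 0.08, adjusted p = 0.806). Prc1 rose by 1.64, Foxm1 by 1.51 and E2f1 by 0.90, the last with 5.63, 6.81 and 7.51 CPM at 12 weeks, against 2.5, 3.5 and 5.07 at 0 days. The lowest called changes were those of Mcm4 (0.46), Tyms (0.39) and Rrm1 (0.33). By role, 8 of 11 replication genes (median 0.46), 7 of 8 cyclins and kinases (1.47), 3 of 8 chromosome genes (0.87), 2 of 7 spindle genes (0.77) and both factors were higher.

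Of the 6 helicase genes, 5 rose in liver between 4 and 12 weeks. In that step 11 genes were higher and none lower, against 17.5% and 18.2% of all genes, with a median of 0.36. Mcm2 had 4.78, 6.4 and 8.46 CPM at 12 weeks, against 1.49, 2.32 and 3.42 at 4 weeks, without overlap (1.45), and Mcm6 (1.41 ± 0.23), Mcm5 (1.08), E2f1 (0.99), Mcm3 (0.78) and Mcm4 (0.36) rose too. Mki67 had 2.48, 4.22 and 9.1 CPM at 4 weeks, and its step (0.18) and those of Top2a (0.24) and Mcm7 (-0.04) were not called. Whether the steps of these genes differ was not tested. Against 0 days Mcm2 changed by 1.53 ± 0.21 at 12 weeks.

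Around these genes in liver at 12 weeks, 21 of 53 further cell cycle genes tested were higher, among them the DNA ligase Lig1 (1.28) and the kinetochore gene Spc24 (0.99), and 2 lower, Tk1 (-1.15 ± 0.17) and the licensing factor Cdt1 (-0.59). Ccnd1, cyclin D1, rose by 1.48 and Cdkn1a, the inhibitor p21, by 2.87 ± 0.45. Macrophage markers summed to 500, 584 and 615 CPM at 12 weeks, against 601, 663 and 740 at 0 days, with 1 of 14 higher and 2 lower, and none of 6 B cell markers was called. Mki67 and the macrophage mean had r = 0.30 and rho = 0.26 within time points over 84 libraries (permutation test, adjusted p = 0.053 and 0.0752).

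Set against epididymal fat, the 12-week change in liver was smaller for 19 of 38 genes and larger for 1, against 20.8% and 26.3% of 15510 genes, with a median of -0.89 beside 0.13 over all genes. Birc5 (-2.82), Cdk1 (-2.66), Bub1 and the spindle motor Kif11 (-2.60 each) differed most, Mki67 by -1.61 ± 0.45 (adjusted p = 0.00161) and Pcna by -1.46 ± 0.20, down to Aurka (-0.85) and Mcm3 (-0.74). Mcm7 was the exception, with a change 0.41 ± 0.13 larger in liver, and Mcm2 (0.25) and Top2a (-1.06, adjusted p = 0.0819) were not called.

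**Figure D3:**
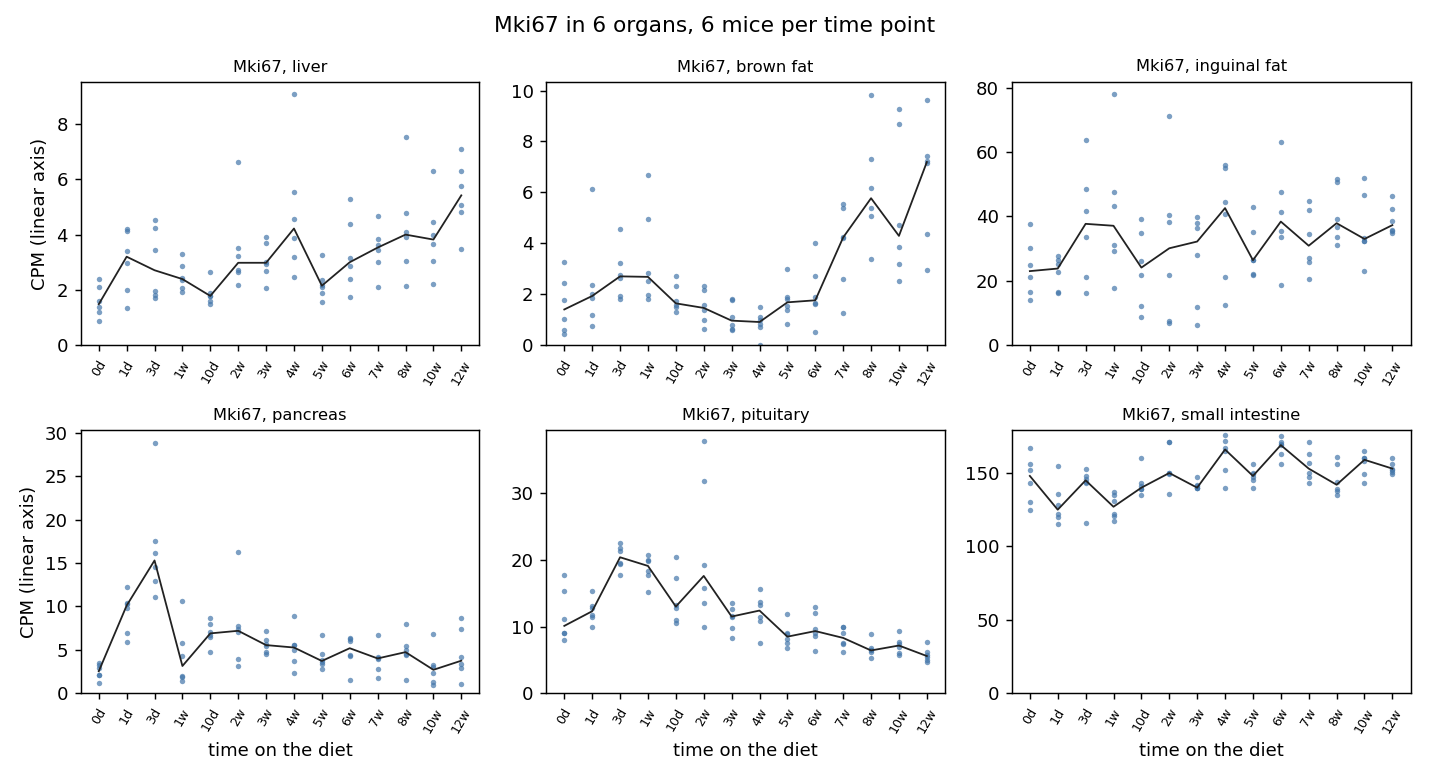
Mki67 in CPM at each time on the diet in liver, brown fat, inguinal fat, pancreas, pituitary and small intestine; points are mice (6 per time), the line joins medians, and each panel has its own linear axis. Liver and brown fat end higher than they began, the pancreas peaks at 3 days with 28.9 as its highest mouse, and the pituitary ends lower.

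The pancreas had an early wave with no replication gene among its calls. At 3 days 19 of 37 genes tested were higher than at 0 days and none was lower, against 1.74% and 0.250% of 12391 genes, with a median of 1.54 and 11 genes without overlap. At 1 week edgeR called none, with 8 at an unadjusted p below 0.05 and none by DESeq2, beside 0.0726% of all genes higher and 0.121% lower. At 12 weeks 1 was higher (Prc1, 1.18 ± 0.38, adjusted p = 0.0489) and none lower, against 2.85% and 3.05%. The call of Prc1 was lost with no filter, in the fit of 12 weeks and 0 days alone, without each group's least correlated library and without the libraries rich in B cell markers. The median change was 1.18 at 1 day and lay between 0.65 and 0.80 in the groups from 1 to 6 weeks, beside -0.01 to 0.02 over all genes. More than 50 CPM of B cell markers were carried by 3 of 6 libraries at 1 week and 4 of 6 at 6 weeks, against 1 of 6 at 0 days, and their part in these medians was not tested. In the fit of 3 and 0 days alone 4 of 24 genes tested were higher.

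Mki67 in pancreas had 1.15, 2.52 and 3.5 CPM at 0 days, 5.84, 10.1 and 12.2 at 1 day, 11.1, 15.3 and 28.9 at 3 days, 1.45, 3.13 and 10.6 at 1 week and 1, 3.74 and 8.62 at 12 weeks. The mice at 1 and 3 days lay above all mice at 0 days, and the change at 3 days was 2.74 ± 0.37 (adjusted p = 1e-06). Cdc20 had 1.92, 4.43 and 8.81 CPM at 3 days, against 0, 0.399 and 1.56 at 0 days (3.24 ± 0.49). Tpx2 had 1.63, 2.93 and 4.89 CPM, against 0.0847, 0.316 and 0.876 (3.00 ± 0.52), both without overlap. Ccnb1 rose by 2.67, Cdk1 by 2.65 and Foxm1 by 2.21, down to Ccna2 (1.54), Top2a (1.22, adjusted p = 0.0494) and Kif20a (0.96).

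By role, 7 of 9 cyclins and kinases were higher in pancreas at 3 days (median 2.65), 6 of 8 chromosome genes (2.32), 5 of 7 spindle genes (1.64), 1 of 2 factors and none of 11 replication genes (-0.03). Mcm2 had 2.38, 2.76 and 3.89 CPM at 3 days, against 3.57, 3.9 and 5.75 at 0 days (-0.55 ± 0.18, adjusted p = 0.0794). Pcna had 7.5, 9.93 and 18.1 CPM, against 6.23, 7.94 and 9.64 (0.39), and E2f1 changed by -0.06. The 17 genes with a CHR had a median of 2.15, with 12 higher, and the 14 tested without one a median of 0.36, with 3 higher. Among further cell cycle genes 13 of 45 tested were higher and none lower, led by Nek2 (4.02 ± 0.55) and Racgap1 (2.69 ± 0.41).

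From 3 days to 1 week 9 genes fell in pancreas and none rose, against 0.460% and 0.444% of all genes, with a median of -0.95. Among them were Ccnb1 by 2.73 ± 0.60, Cdc20 by 2.48, Mki67 by 1.87 ± 0.35, Tpx2 by 1.77, Ccna2 by 1.57 and Kif20a by 0.95. At 3 days none of 13 macrophage, 10 B cell, 9 T cell or 10 acinar markers was called, and 1 of 10 islet markers was higher. One library at 3 days had acinar markers summing to 1140000 CPM on the TMM scale, on which a sum can exceed the library total, and held the highest Ccna2 and Pcna of its group but not the highest Mki67.

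In small intestine, where the level was highest, changes were small. At 1 week 8 of 38 genes were lower and 1 higher than at 0 days, against 13.6% and 13.5% of 14345 genes. At 12 weeks 15 were higher and 1 lower, against 19.8% and 19.1%, with a median of 0.13. From 1 to 4 weeks 29 were higher and none lower, against 8.41% and 7.33%, with a median of 0.34 and 13 genes without overlap. Mki67 had 125, 148 and 167 CPM at 0 days, 117, 127 and 137 at 1 week, 140, 166 and 176 at 4 weeks and 149, 153 and 160 at 12 weeks. The mice at 4 weeks lay above those at 1 week and overlapped with those at 0 days.

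Mki67 was lower by -0.19 ± 0.06 at 1 week (adjusted p = 0.0105), with Nusap1, which bundles spindle microtubules (-0.38 ± 0.09), Cenpf (-0.37), Tpx2 (-0.29), Ccnb1 (-0.22), Ccna2 (-0.18) and Pcna (-0.12). Mcm2 went the other way and stayed there: it had 16.7, 19.6 and 22.2 CPM at 0 days, 28.1, 34.3 and 39.8 at 1 day, 27.2, 30.6 and 35.4 at 1 week, 29.8, 33.7 and 40.9 at 4 weeks and 27, 31.6 and 35.4 at 12 weeks. No mouse of these later groups overlapped with 0 days, and its change was 0.68 ± 0.09 at 1 week (adjusted p = 1.71e-08) and 0.70 ± 0.09 at 12 weeks (adjusted p = 2.13e-09).

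At 12 weeks 8 of 11 replication genes were higher in small intestine (median 0.41), among them Uhrf1 (0.52) and Rrm2 (0.47), with Tyms (0.22) among the smallest, beside 4 of 9 cyclins and kinases, 2 of 9 chromosome genes, none of 7 spindle genes and 1 of 2 factors (Foxm1, 0.30). Bub1b was higher by 0.21 and Cenpf lower by -0.27 ± 0.07. Mki67 (0.08), Top2a (0.01), Pcna (-0.01), Cdk1 (0.05), Ccnb1 (-0.02) and E2f1 (0.40, adjusted p = 0.0588) were not called. From 1 to 4 weeks the gains were led by Aurka, a centrosome kinase (0.65), Tpx2 (0.52) and Birc5 (0.47), with Mki67 at 0.34 ± 0.06, Cdk1 at 0.33, Ccnb1 at 0.31, Top2a at 0.23, Pcna at 0.21 and Kif11 at 0.20, and Mcm2 not called (0.16).

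Crypt stem cell markers summed to 758, 873 and 928 CPM at 0 days, 645, 698 and 763 at 1 week and 896, 975 and 1030 at 12 weeks. Of these markers 4 of 10 were lower and 1 higher at 1 week, and 5 higher at 12 weeks. Acinar markers of the adjoining pancreas summed to 130, 407 and 2730 CPM at 12 weeks, against 6700, 10200 and 17500 at 0 days, with 10 of 10 lower. The part of either in the gene changes was not tested.

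The pituitary fell. At 12 weeks 23 of 38 genes were lower and 2 higher than at 0 days, against 22.4% and 23.2% of 15086 genes, with a median of -0.71, and in 12 genes all 6 mice lay below all 6 at 0 days. Before that, 5 were higher and 1 lower at 1 week, against 21.4% and 19.7%, and 12 were higher and 1 lower at 2 weeks, against 22.4% and 21.8%. The fit of 2 weeks and 0 days alone called 6 higher and none lower. From 4 to 12 weeks 10 were lower and none higher, against 1.68% and 1.44%, with a median of -0.47, and 6 were lower after leaving out each group's least correlated library.

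Mki67 in pituitary had 7.99, 10.1 and 17.7 CPM at 0 days, 9.96, 17.6 and 37.8 at 2 weeks and 4.71, 5.57 and 7.61 at 12 weeks. The mice at 12 weeks lay below all at 0 days and at 2 weeks, and those at 2 weeks overlapped with 0 days. Its change was 0.67 ± 0.19 at 1 week, 0.86 ± 0.19 at 2 weeks and -1.02 ± 0.21 at 12 weeks. At 2 weeks Cenpf (1.23 ± 0.22) and Cenpe (1.08 ± 0.19) led, with Top2a at 0.78 and Pcna and Mcm4 at 0.20, and Uhrf1 was lower (-0.46). Foxm1 (-0.23), E2f1 (0.13), Mcm2 (0.17), Cdk1 (0.41) and Ccnb1 (0.53) were not called. At 1 week Cenpf (0.94), Cenpe (0.88), Top2a (0.49) and Rrm1 (0.25) were higher and Uhrf1 lower (-0.60).

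By role, 8 of 9 cyclins and kinases, 6 of 9 chromosome genes, 6 of 7 spindle genes and 1 of 2 factors were lower at 12 weeks. Of 11 replication genes 2 were lower and 2 higher, with no test between the roles. Ccnb2 had 0.244, 0.632 and 0.897 CPM at 12 weeks, against 1.3, 1.88 and 3.03 at 0 days, without overlap (-1.78 ± 0.32, adjusted p = 1.95e-06). Birc5 changed by -1.60, Ube2c by -1.43, Cdk1 by -1.29, Ccnb1 by -1.22, Foxm1 by -0.93, Top2a by -0.81 and Kif20a by -0.23. The clamp gene ran against them: Pcna had 37.6, 38.6 and 44.7 CPM at 12 weeks, against 31.8, 33.3 and 34.9 at 0 days, without overlap (0.27 ± 0.07). Mcm5 was higher by 0.22 ± 0.09 (adjusted p = 0.0499), a call that held with a replicate block and under none of the other 5 alternatives. Mcm2 (-0.07) and E2f1 (-0.33) were not called.

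From 4 to 12 weeks Bub1 (-1.80), Ube2c (-1.50) and Aurkb (-1.42) fell most in pituitary, followed by Cdk1 (-1.09) and Mki67 (-1.06 ± 0.20), down to Rrm2 (-0.91), Top2a (-0.89) and Cenpa (-0.83). Of 66 further cell cycle genes, 35 were lower and 3 higher at 12 weeks, with Ncapd2 at -0.67 and Racgap1 at -0.60 and, higher, Smc2 at 0.57 and Pola1 at 0.55. The hormone transcripts of the gland summed to 115000, 124000 and 136000 CPM at 12 weeks, against 187000, 208000 and 224000 at 0 days, with 2 of 8 genes higher and 3 lower. Their part in the scaling of other genes was not tested. In promoters with a CHR the median change was -0.81, with 13 of 17 lower, and without it -0.33, with 5 of 15 lower.

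**Figure D4:**
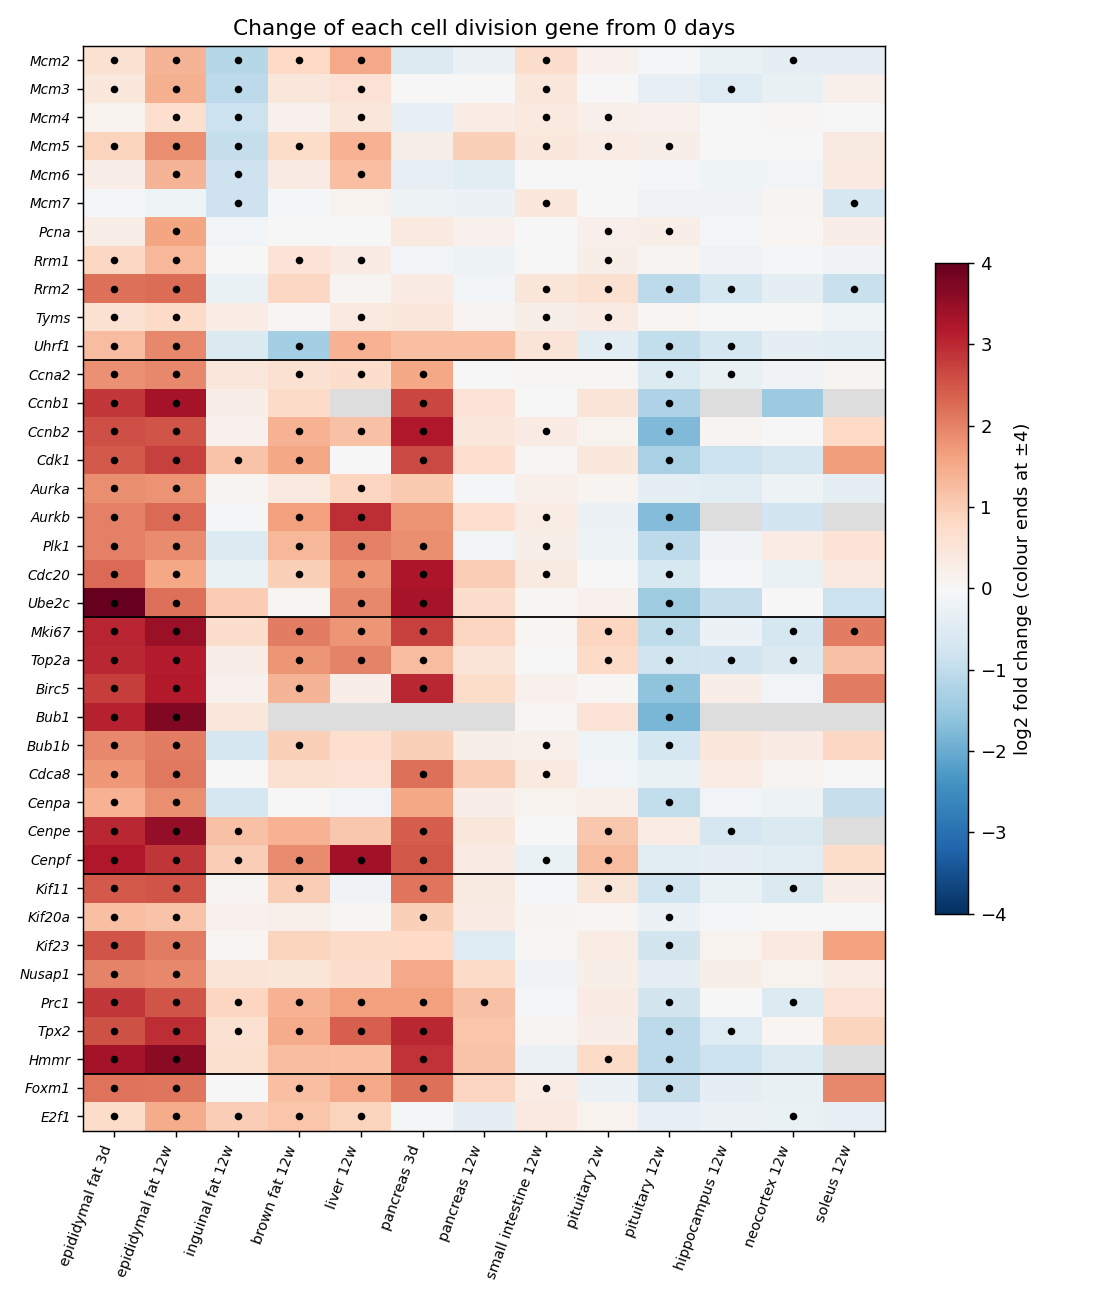
Log2 fold change of each of the 38 members (rows, grouped by role) in 13 contrasts of organ and time against 0 days (columns); a dot marks an adjusted p below 0.05, grey means not tested, and the colour scale ends at 4 in either direction. Epididymal fat at 12 weeks has dots in 37 rows and the pituitary at 12 weeks in 25, most of them lower.

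In the brain few genes were called lower at 12 weeks, not far from the share of all genes in each region, and the gap was not tested. In hippocampus 7 of 35 genes tested were lower and none higher, against 12.4% and 13.2% of 14850 genes: Top2a (-0.78 ± 0.19), Rrm2 (-0.71), Uhrf1 (-0.69), Mcm3 and Tpx2 (-0.53 each), Ccna2 (-0.30) and Cenpe. Top2a had 0.835, 1.36 and 2.07 CPM at 12 weeks, against 1.72, 2.36 and 2.79 at 0 days, with overlap, and Mki67 was not called (-0.24). Newborn neuron markers were lower in 5 of 11 and oligodendrocyte precursor markers in 4 of 10.

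In neocortex 6 of 37 genes were lower at 12 weeks and none higher, against 11.8% and 13.3% of 14851 genes. Mki67 had 1.57, 2.11 and 3.82 CPM at 12 weeks, against 3, 3.94 and 4.29 at 0 days, with overlap (-0.67 ± 0.19), and Top2a (-0.59), Kif11 (-0.57), Prc1 (-0.54), Mcm2 (-0.37) and E2f1 (-0.26) were the others. Newborn neuron markers were lower in 5 of 11 and higher in 1, and oligodendrocyte precursor markers lower in 4 of 10 and higher in 1.

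In hypothalamus 2 of 34 genes were lower at 12 weeks and none higher, against 3.71% and 3.09% of 15027 genes: Top2a (-1.39 ± 0.38) and Cdc20, and Mki67 was not called (-1.25, adjusted p = 0.0515). In olfactory bulb 1 of 34 was higher (Cdca8, 0.51 ± 0.18, not called with no filter) and 1 lower (Prc1, -0.38 ± 0.11), against 10.8% and 9.99% of 14935 genes. At 1 week edgeR and DESeq2 called none in these 4 brain regions, with 2 genes at an unadjusted p below 0.05 in hippocampus, none in neocortex, 2 in hypothalamus and 3 in olfactory bulb. The background at 1 week was 0.316% higher and 0.0943% lower in hippocampus, 4.80% and 4.25% in neocortex, 0.306% and 0.386% in hypothalamus and 1.26% and 2.65% in olfactory bulb.

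In gastrocnemius the spindle gene Tpx2 was called higher in each group from 1 to 12 weeks. It was the 1 gene of 30 tested that was higher at 1 week (0.98 ± 0.18) and again at 12 weeks (1.59 ± 0.18, adjusted p = 4.64e-10), and none was lower. Among all genes the shares were 0.343% higher and 0.916% lower of 13104 genes at 1 week and 2.40% and 3.54% at 12 weeks. It had 1.39, 1.86 and 2.85 CPM at 0 days, 2.75, 3.7 and 5.58 at 1 week and 3.99, 6.49 and 6.97 at 12 weeks, without overlap between 12 weeks and 0 days. At 2 weeks 10 genes were higher in gastrocnemius and 1 lower (Bub1b, -1.32 ± 0.42), against 14.4% and 8.27% of all genes, with a median of 0.38. They included Ube2c, with the reads it shares with Tnnc2, Mki67 (1.75 ± 0.49), Cdk1 (1.73), Top2a (1.22), E2f1 (1.06) and Pcna (0.61). At that time 5 were higher and none lower after leaving out each group's least correlated library, with Mki67 at 3.47, and the fit of 2 weeks and 0 days alone called 1. In soleus 1 of 33 was higher at 12 weeks and 2 lower, against 2.19% and 1.69% of 13090 genes. Mki67 had 0.141, 1.21 and 1.41 CPM, against 0, 0.154 and 0.527 at 0 days, with overlap (2.05 ± 0.63, adjusted p = 0.0436). Rrm2 (-0.88) and Mcm7 (-0.66 ± 0.16) were lower. The call of Mki67 was lost with no filter on low counts, and the fit of 12 weeks and 0 days alone called none of the members it tested in soleus. At 1 week edgeR called none in soleus, with 11 at an unadjusted p below 0.05 and 2 by DESeq2, beside 0.0688% of all genes higher and 0.0382% lower.

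Across the 13 organs at 12 weeks the genes divided. Mki67 was higher in 4 organs and lower in 2, Top2a higher in 3 and lower in 4, Prc1 higher in 5 and lower in 3, Tpx2 higher in 5 and lower in 2, and Mcm5 higher in 5 and lower in 1. Uhrf1 was higher in 3 and lower in 3, Pcna and Aurka were higher in 2 and lower in none, and Mcm7 was higher in 1 and lower in 2.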

How the data were processed

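Messenger RNA was measured by strand-specific poly(A) RNA sequencing, per the labels' protocols. The authors deposited one table of raw read counts per gene; HISAT2 2.1.0, featureCounts 1.6.3, FastQC 0.11.7, Trimmomatic 0.38, SAMtools 1.9 and the mouse build GRCm38 (mm10) are named in the submitters' processing notes, and neither the annotation nor the strand setting used for counting is given in the sources used here. Depth was 7670532 to 27036098 counts per library. No 2 libraries of a group agreed within sampling noise (lowest chi-square per degree of freedom 2.109 over 2760 pairs). Replicates are separate mice, as the series describes 6 mice per time point.

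From these counts each organ was fitted with all its time points in edgeR 4.0.16 (R 4.3.3, limma 3.58.1): TMM scaling, filterByExpr, one coefficient per time point, quasi-likelihood test, two-sided, Benjamini-Hochberg adjustment over all genes tested, threshold 0.05. Differences between organs were tested in one fit of both organs. CPM use TMM effective library sizes, so a sum of CPM can exceed the library total, and the levels at 0 days between organs use one common scaling. The standard error was taken from the F statistic, as the absolute log2 fold change divided by its square root. Relations within time points used log2 CPM centred on each time point's mean and 10000 permutations; in inguinal fat, where B cell markers form 2 clusters, they were computed within each cluster instead of over all libraries. The fitting was tested on simulated data. Alternatives were RLE size factors, no filter, DESeq2 1.42.0, a replicate block, a fit of 2 time points, each group's least correlated library left out and, chosen after seeing the data, libraries with other tissue left out. Replicate numbers paired the samples in 0 of 13 organs.

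The 38 genes and all lists were chosen with earlier results of these data known. Named in each comparison were 8 genes (Mki67, Top2a, Ccnb1, Cdk1, Mcm2, Pcna, Foxm1 and E2f1), the 3 called genes with the highest and the 3 with the lowest change and a mean of at least 1 CPM, and genes called against the majority; of other lists, the 2 genes with the smallest p in each direction. The levels of Mcm7 and Ube2c, the course of Uhrf1 and the comparisons with 0 days of epididymal fat at 3 weeks, liver at 4 weeks and gastrocnemius at 2 weeks were added after their values were seen, as were genes under that level that changed most. Exon overlaps are from GENCODE M21 and promoters from RefSeq, both GRCm38. Python 3.11.15 with numpy 2.4.6, scipy 1.17.1, pandas 2.3.3 and matplotlib 3.10.9 made tables and figures.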

Additional observations from a re-analysis of the deposited data

Results flagged for a closer look

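In 5 of 111 groups of 6 mice whose levels are given, 1 mouse lay far from the other 5, by Dixon's test at the 95% level, which chance alone gives in about 1 group in 20. In epididymal fat these were Cdk1 at 12 weeks, with 30.4 CPM beside 20.9 in the next mouse, Ube2c at 3 days, with 1270 CPM beside 25.8, and Ube2c at 0 days, with 5.1 CPM beside 3.79. In pancreas the highest mouse at 3 days had 28.9 CPM of Mki67 beside 17.5, and in liver the highest mouse at 0 days had 0.466 CPM of Cenpf beside 0.173.

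The 12-week change differed between organs, by a test of the difference itself. It was larger in epididymal fat for 35 of 38 genes beside inguinal fat, against 21.4% larger and 18.9% smaller of all genes. Beside brown fat it was larger for 26, against 19.9% and 20.5%. In liver it was larger for 1 gene and smaller for 19 than in epididymal fat, against 26.3% and 20.8%. The loss of lymphocyte markers in inguinal fat and a depot difference cannot be told apart. For Mki67 the difference was 2.77 between epididymal and inguinal fat, 1.35 between epididymal and brown fat and -1.61 between liver and epididymal fat.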

How the results depend on the processing

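Of the counts and correlations that answer a comparison, 333 values under an alternative kept to within 1.5 times the count or the same side of the threshold, 56 counts moved further, 5 correlations passed the threshold only under the alternative and 1 reversed. Of single genes, 2881 values kept their call and direction, 138 lost and 30 gained a call, and 1 reversed, Birc5 in inguinal fat at 1 week (-0.10, adjusted p = 0.886, after leaving out each group's least correlated library). The causes were not tested.

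Counts of genes higher moved as follows in a fit of the 2 time points alone: 7 in epididymal fat at 2 weeks, 2 in brown fat at 1 week, 1 at 3 days and 0 at 1 week in inguinal fat, 4 at 3 days and 0 at 12 weeks in pancreas, 6 at 2 weeks and 1 at 12 weeks in pituitary, 4 in liver at 4 weeks, 1 at 2 weeks and 4 at 12 weeks in gastrocnemius and 0 in soleus at 12 weeks. Counts lower moved to 0 in liver at 1 week, 4 in small intestine at 1 week, 0 in pituitary and 0 in gastrocnemius at 2 weeks and 0 in soleus at 12 weeks. After leaving out each group's least correlated library, counts higher were 7 in epididymal fat at 2 weeks, 2 at 1 week and 12 at 12 weeks in brown fat, 2 in inguinal fat at 1 week, 0 in pancreas at 12 weeks, 2 at 1 week, 5 at 2 weeks and 3 at 12 weeks in gastrocnemius, 4 in soleus at 12 weeks and 2 for liver over epididymal fat, calls in soleus at 1 week were 2, and counts lower were 0 in liver at 1 week, 0 in gastrocnemius at 2 weeks, 0 at 2 weeks and 6 from 4 to 12 weeks in pituitary, 1 in hypothalamus and 2 in olfactory bulb at 12 weeks. With no filter, counts higher were 3 in inguinal fat at 1 week, 0 in pancreas, 1 in pituitary, 0 in olfactory bulb and 0 in soleus at 12 weeks, and counts lower 0 in liver at 1 week and 1 in soleus at 12 weeks. RLE size factors gave 0 lower in liver at 1 week, 2 lower in small intestine and 1 higher in pituitary at 12 weeks. DESeq2 gave 2 higher in brown fat at 1 week, 2 lower in gastrocnemius at 2 weeks, 2 lower in small intestine, 1 higher in pituitary and 3 higher in soleus at 12 weeks, and 2 calls in soleus at 1 week. Without the libraries carrying other tissue, 9 were higher in brown fat and 0 in pancreas at 12 weeks, and within the inguinal libraries rich in B cell markers 4 were higher at 3 days and 10 at 1 week.

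The replicate numbers did not pair the mice in any organ. With a replicate block, the counts that moved were those higher at 1 week, to 2 in brown fat and 2 in small intestine, and Mki67 in epididymal fat changed by 3.44 at 12 weeks. For the correlations of Mki67, scaling by library size alone gave 0.35 (macrophage) and 0.32 (B cell) in epididymal fat, 0.37 with B cell markers in brown fat and 0.32 with macrophage markers in liver, and reversed that with macrophage markers in the B cell-rich inguinal libraries (0.50, against -0.13 with TMM scaling); liver also reached 0.32 without the 2 farthest libraries. Genes under 1 CPM rest on few reads, so that their lack of a call does not show that they did not change.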
